A study of Mus musculus with 8 samples.

Results

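A set of 2381 chromatin regions was examined that were open in 3 populations of differentiating mouse cells, to a like degree in the wild-type ones. They were far less accessible in another population, in which the transcription factor Etv2 had been induced. The regions were drawn from the 168842 regions of the series, of which they make up 1.41%. They were chosen from group means of the normalized read counts, with L(a,b) standing for log2((mean of a + 5)/(mean of b + 5)). A region was taken if its means in wild-type DP, wild-type SP and Etv2 knockout DP cells were each at least 50, if the absolute value of L(wild-type SP, wild-type DP) was below 0.5, and if L(induced SP, wild-type SP) was -2 or lower. The values in the induced cells therefore chose the regions. They are given below as a description, and nothing is read from tests of them at these regions.

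The study profiled open chromatin by ATAC-seq, in which the Tn5 transposase cuts accessible DNA, in embryoid bodies (EBs), the aggregates that mouse embryonic stem cells form when they differentiate. All 8 libraries were made from 50000 sorted live cells taken at day 4, and each of the 4 groups has 2 libraries. Wild-type DP (double-positive, PDGFRalpha+FLK1+) and wild-type SP (single-positive, PDGFRalpha-FLK1+) cells came from the A2lox.Cre line. Etv2KO DP cells (PDGFRalpha+FLK1+) came from an Etv2 knockout line, and Etv2OE SP cells (PDGFRalpha-FLK1+) came from the iETV2 line, to which doxycycline was given at 2 µg/ml from day 2.5. Each genotype is a line of its own and doxycycline was given to the iETV2 line only, so that line, drug and Etv2 dose cannot be told apart. The labels do not say whether replicate libraries came from separate cultures, and p-values measure the spread between these libraries, which may be technical.

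Etv2 is an ETS-family transcription factor that is required in the early mouse embryo for the first endothelial and blood progenitors. FLK1, the product of Kdr, is the VEGF receptor that marks mesoderm with vascular, blood and cardiac potential, and PDGFRalpha marks mesoderm that has not yet turned to the blood and endothelial path. Tissue-specific expression is controlled mainly by distal enhancers, which open and close as cells change fate, whereas promoters rich in CG pairs tend to stay open in many cell types.

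The rule did not use sequence or position. Sequence was read only at promoters, and that of the reduced regions without a start site was not examined. What follows on sequence therefore describes the promoters and not the whole set. Of the 2305 reduced regions on chromosomes with start sites in the RefSeq promoter table, 27 hold one, and 4 of their upstream sequences are printed with 2 from start regions that kept their accessibility at genes with several reduced regions. Each is the 250 bases before the start site, from RefSeq (GRCm38.p6, the same assembly as mm10), written 5′ to 3′ on the gene's strand, with CG pairs in capitals. The first lies at chr9:46913353-46913602 (+ strand) before a start of the long non-coding RNA 2900052N01Rik, the second lies at chr11:96024295-96024544 (+ strand) before Gip, which encodes a gut hormone. The third lies at chr6:119196410-119196659 (- strand) before a start of Cacna1c, which encodes a calcium channel subunit of heart muscle, and the last at chr4:138819258-138819507 (- strand) before Pla2g5, which encodes a secreted phospholipase. The kept starts are those of Lbh at chr17:72918055-72918304 (+ strand) and of Runx1 at chr16:92697330-92697579 (- strand).
2900052N01Rik: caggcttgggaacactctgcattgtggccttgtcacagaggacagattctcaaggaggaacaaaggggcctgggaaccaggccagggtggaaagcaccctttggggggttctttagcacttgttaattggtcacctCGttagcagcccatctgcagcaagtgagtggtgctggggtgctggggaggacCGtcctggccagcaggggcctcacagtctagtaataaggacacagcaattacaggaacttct
Gip: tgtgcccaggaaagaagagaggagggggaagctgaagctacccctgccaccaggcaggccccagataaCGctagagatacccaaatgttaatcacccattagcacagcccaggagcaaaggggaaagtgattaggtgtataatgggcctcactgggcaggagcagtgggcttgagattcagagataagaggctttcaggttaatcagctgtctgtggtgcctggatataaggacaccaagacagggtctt
Cacna1c: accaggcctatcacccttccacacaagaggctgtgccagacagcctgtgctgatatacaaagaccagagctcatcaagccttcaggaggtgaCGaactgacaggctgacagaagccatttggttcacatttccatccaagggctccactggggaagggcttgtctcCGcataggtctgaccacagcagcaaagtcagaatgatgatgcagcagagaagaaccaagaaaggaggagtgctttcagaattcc
Pla2g5: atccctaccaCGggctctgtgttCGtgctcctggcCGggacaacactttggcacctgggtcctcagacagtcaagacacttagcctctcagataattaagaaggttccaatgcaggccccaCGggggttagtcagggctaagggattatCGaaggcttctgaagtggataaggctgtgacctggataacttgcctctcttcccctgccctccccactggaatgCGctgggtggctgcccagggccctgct
Lbh: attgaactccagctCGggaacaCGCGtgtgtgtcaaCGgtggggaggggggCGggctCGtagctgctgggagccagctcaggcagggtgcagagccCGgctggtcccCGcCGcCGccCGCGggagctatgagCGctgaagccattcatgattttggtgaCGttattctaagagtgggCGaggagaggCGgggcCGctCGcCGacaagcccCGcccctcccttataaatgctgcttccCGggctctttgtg
Runx1: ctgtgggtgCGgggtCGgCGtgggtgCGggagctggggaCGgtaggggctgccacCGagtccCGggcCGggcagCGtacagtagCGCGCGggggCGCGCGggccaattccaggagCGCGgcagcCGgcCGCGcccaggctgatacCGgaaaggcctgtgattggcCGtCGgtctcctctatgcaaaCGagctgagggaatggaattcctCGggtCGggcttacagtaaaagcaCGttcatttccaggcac

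The 4 reduced starts hold 1 to 6 CG pairs in these 250 bases, against 21 for Lbh and 27 for Runx1. Where a region holds several start sites, the one of lowest coordinate was counted in what follows. Over the 300-base windows of the RefSeq promoter table (250 bases before to 50 after the start), the 27 promoters that lie in reduced regions have a median of 3 CG pairs (range 1 to 7) and 51.3% G+C. Another start of Aqp7 in the same region, which was not counted, has 0 CG pairs. The 7580 promoters in regions that kept their accessibility in Etv2OE SP have a median of 21 CG pairs and 62% G+C, and the 32817 promoters of the whole table have 7 CG pairs. Of the 27, 6 belong to protein-coding genes, namely Gip, Cacna1c, Pla2g5, Upk3b, Aqp7 and Uros, and 21 to non-coding genes. The kept promoters of non-coding genes also have a median of 21 CG pairs, against 3 in the reduced ones.

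Short motifs were counted on both strands of the same 300-base windows. The GATA motif AGATAA occurs in 9 of the 27 reduced promoters (33.3%), in 4.86% of the kept promoters and in 11.2% of all promoters, and the printed Gip sequence holds 2 copies, counting both strands. With regions chosen by Etv2OE SP replicate 1 alone it occurs in 18 of 59 promoters (30.5%), and by replicate 2 alone in 2 of 12 (16.7%). The SOX-type word ACAAAG was found in 33.3% of the reduced, 11.97% of the kept and 18.7% of all promoters, and the TEAD-type word GGAATG in 25.9%, 10.96% and 14.7%. Of the ETS-type words, CCGGAA, which contains a CG pair, is in none of the 27, in 29.4% of the kept and in 14.9% of all promoters, whereas CAGGAA is in 44.4%, 23.9% and 30.6%. The KLF/SP word GGGCGG is in 7.41% of the reduced, 70.0% of the kept and 35.6% of all promoters. Other words were searched too. The E-box word CANNTG was in 81.5% of the reduced and 72.3% of all promoters. The T-box word GGTGTGA was in 11.1% and 3.98%, and the ZIC word CAGCAGG in 14.8% and 10.5%. FOX, LEF/TCF, HOX-TALE and AP-1 words were each in 3.70% of the reduced, against 3.65%, 3.73%, 8.855% and 7.81% of all promoters. The OCT word was in none of the 27 and in 1.74% of all promoters. These words differ in base composition, as do the promoters, and the part of base composition in these shares was not tested; a match is not a binding site.

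The libraries hold 12477601 to 18853733 reads in regions. The labels were checked at the targeted gene and at the sorting markers. A region inside Etv2 had 563 and 611 normalized reads in wild-type DP, 475 and 493 in wild-type SP, 425 and 645 in Etv2OE SP, and 0.840 and 0 in Etv2KO DP. Of the 28 regions at Pdgfra, one just upstream of the gene, chosen after its values were seen, had 580 and 657 in wild-type DP, 686 and 638 in Etv2KO DP, 272 and 270 in wild-type SP, and 108 and 129 in Etv2OE SP. The region at the 5′ end of Pdgfra did not separate the wild-type sorts, with 142 and 167 in DP and 163 and 150 in SP. At Kdr, the start region lay between 333 and 519 in all 8 libraries. The 2 Etv2OE SP libraries stood apart from each other at the reduced regions, as described next, and counts and shares of reduced regions are given with each induced library alone for the gene lists, genes and promoters that lead the results.

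In the 6 libraries without induction the reduced regions had nearly the same levels, with medians of 143 and 145 normalized reads in wild-type DP, 141 and 145 in wild-type SP, and 141 and 143 in Etv2KO DP. The medians were 13.9 in Etv2OE SP replicate 1 and 30.2 in replicate 2. For comparison, the 25442 regions that met the same floors and bound and kept their accessibility (absolute L below 0.5) had medians of 208 and 200 in wild-type SP and 176 and 208 in Etv2OE SP. In bulk libraries such as these, fewer cells with a site open and less opening per cell cannot be told apart. Both Etv2OE SP libraries lay below all 6 others at 2380 of the 2381 regions, a pattern found at 30.9% of all regions and at 29.6% of the 40373 regions that met the floors and the bound, called open alike from here on. The rule's bounds all but fix this pattern at the reduced regions, here and at the single regions below, so nothing is read from it. The name open alike refers to the wild-type groups. For the knockout the rule sets a floor but no bound, so single regions may differ there from wild type.

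**Figure D1:**
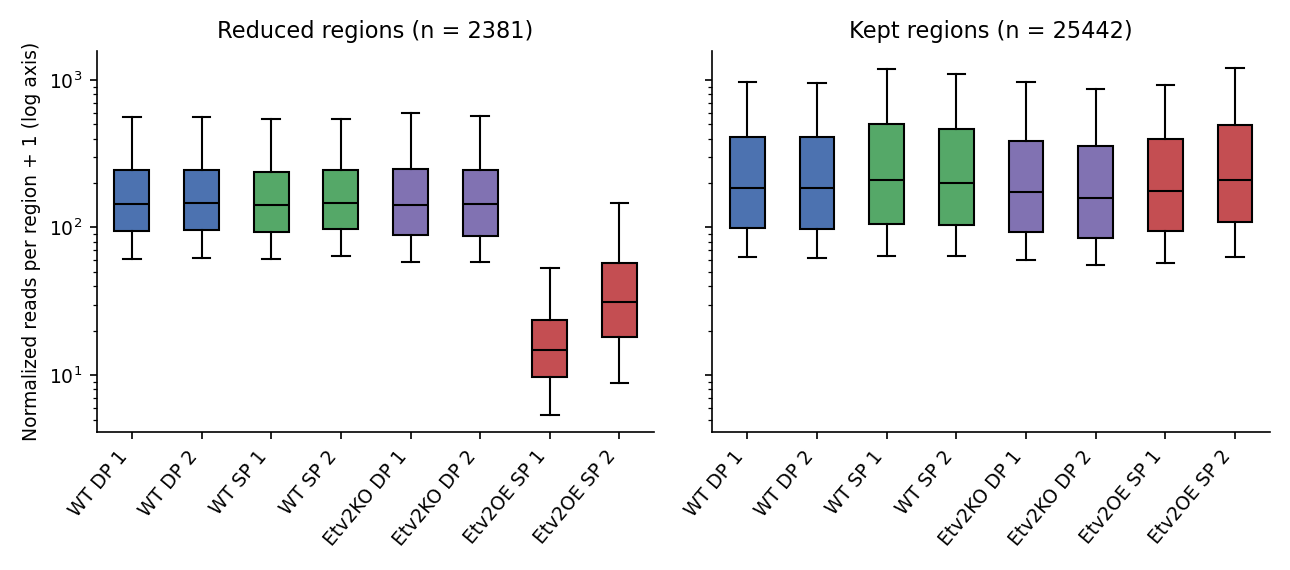
Normalized reads per region plus 1 (log axis) in each of the 8 libraries for the 2381 reduced regions (left) and the 25442 kept regions (right). Boxes span the quartiles with the median as a line and whiskers reach the 5th and 95th percentiles. The reduced regions have medians of 141 to 145 in the 6 libraries without induction and of 13.9 and 30.2 in the 2 induced libraries, while the kept regions have like levels in all 8.

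The word shut, by which the set was first named, describes replicate 1 better than replicate 2. The median over all 168842 regions was 29.9 in Etv2OE SP replicate 1, and 2016 of the reduced regions (84.7%) lay below it. In replicate 2 that median was 35.5, and 1342 (56.4%) lay below it. In the other 6 libraries none of the reduced regions lay below the library's median. Nothing is read from that, as the rule's floor on group means lies above those medians and all but fixes it. Because the word shut describes replicate 2 less well, the regions are called reduced here. Only 1 of them had no read in an induced library, in replicate 1.

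Replicate 1 was lower than replicate 2 at 2172 of the reduced regions (91.2%), with a median difference of -0.89 on the scale of log2(value + 5). The same difference had a median of -0.27 over kept regions and of -0.20 over all regions tested. The replicates were more than 1 log2 unit apart at 1034 reduced regions (43.4%), against 1.12% of kept regions and 9.22% of all regions tested. With replicate 1 alone as the induced group, L was -2 or lower at 2331 of the regions (median -2.92). With replicate 2 alone it was so at 1278 (median -2.04), and 1228 passed in both. All 2381 had an L of -1 or lower in each replicate, the highest being -1.69 in replicate 1 and -1.28 in replicate 2. The rule's bound on the mean of the 2 replicates fixes an L below -1 in each, so nothing is read from this. Had only replicate 1 been used to choose, 4114 regions would have met the rule, and with only replicate 2 it would have been 1349. What sets the 2 induced libraries apart was not tested.

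**Figure D2:**
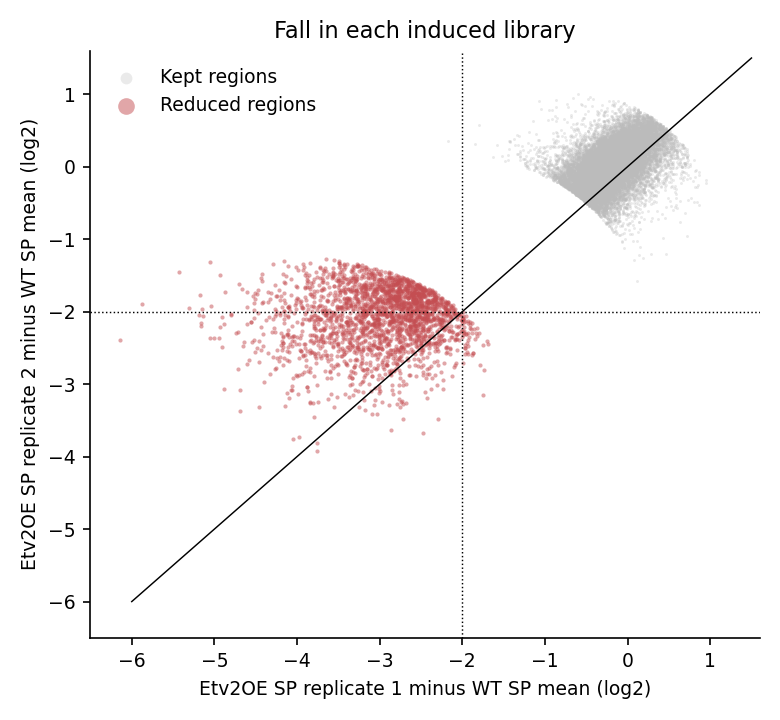
Difference from the wild-type SP mean on the log2(value + 5) scale in Etv2OE SP replicate 1 (x axis) and replicate 2 (y axis), for reduced regions (red) and kept regions (grey). The solid line marks equal values and the dotted lines mark -2. Most red points lie above the line of equality, which shows the 2172 regions with the lower value in replicate 1. All red points lie below -1 on both axes, which the rule fixes in advance.

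The 4 regions with the widest gap between the induced libraries are at Mipep, Crabp1, Blk and Cttnbp2. The region in Mipep, which encodes a mitochondrial peptidase, had 1139 and 1229 normalized reads in wild-type SP and 15.3 and 315 in Etv2OE SP. The region 10.9 kb from Crabp1, which encodes a retinoic acid binding protein, had 1009 and 1040 in wild-type SP and 19.0 and 371 in Etv2OE SP. At both, the induced libraries lie below all others, but by very different amounts.

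The values of L run from -3.89 to -2.001 with a median of -2.36, and 177 regions have an L of -3 or lower. The set is the tail of a continuous distribution. Among the 40373 regions open alike, 2204 lie between -3 and -2, 5054 between -2 and -1, and 21 at 2 or higher, while 25442 (63.0%) are kept. The 3 regions just inside the bound of -2 are near Camk1g, Arid3b and Abhd18, with L between -2.0015 and -2.0011. The 3 just outside, near Prr16, Kcnq1 and Gabrr3, have L between -1.9999 and -1.9992. By level, reduced regions make up 6.09% of regions open alike with a wild-type SP mean of 50 to 100, 7.92% of those of 100 to 200, 6.61% of those of 200 to 400 and 2.52% of those of 400 and more.

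**Figure D3:**
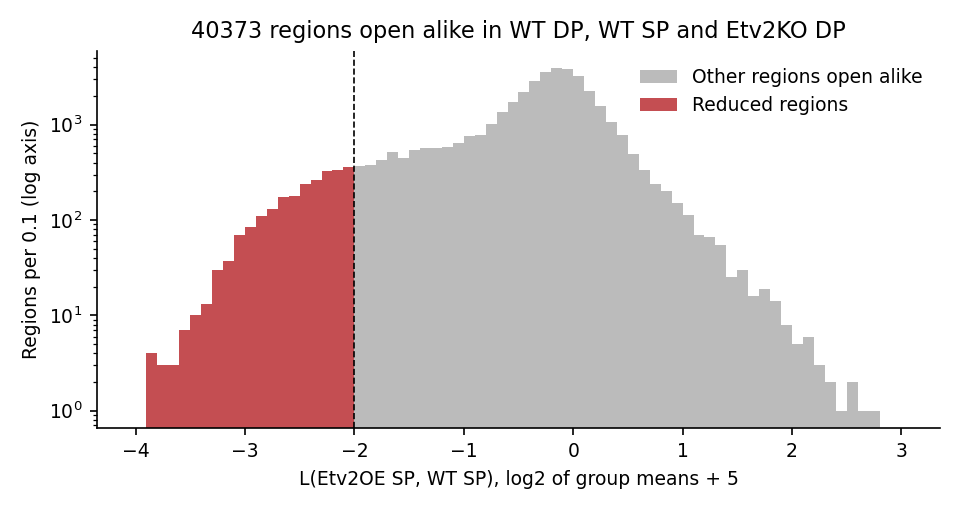
Number of regions per 0.1 of L(Etv2OE SP, WT SP) (log axis) among the 40373 regions open alike. The 2381 reduced regions (red) lie left of the dashed line at -2 and continue the lower tail, which is longer than the upper one, where 21 regions reach 2.

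The lowest values of L belong to regions with few reads left in the induced cells. The region at chr15:37070094-37070494, 61.6 kb from the predicted gene LOC115488529, had 185 and 173 normalized reads in wild-type DP, 216 and 228 in wild-type SP, 143 and 174 in Etv2KO DP, and 8.75 and 11.8 in Etv2OE SP (L -3.89). A region inside Tox3, which encodes a high-mobility-group protein, had 261 and 328, 214 and 206, 264 and 251, and 10.9 and 9.20 in the same order (L -3.83). In both regions the 2 induced libraries lie close together and far below the other 6. The region near Adgra1, which encodes an adhesion G-protein-coupled receptor, rests on 6 reads in the induced cells against 204 in wild-type SP (L -3.79). Regions inside Slc14a2, which encodes a urea transporter, and Hunk, which encodes a kinase, and regions near Galnt18 and at chr13:59988308-59988708 and chr17:13495756-13496156 complete the 8 lowest, with L from -3.88 to -3.67.

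The 5 reduced regions of highest level had 1082 normalized reads or more in each of the 6 other libraries. The start of 2900052N01Rik, whose sequence is printed above, had 1642 and 1701 in wild-type DP, 1222 and 1221 in wild-type SP, 1670 and 1496 in Etv2KO DP, and 88.3 and 227 in Etv2OE SP (L -2.91). A region inside Smarcd3, which encodes the BAF60c subunit of the SWI/SNF chromatin remodelling complex that works with cardiac factors, had 1200 and 1151, 1084 and 1082, 1316 and 1387, and 55.4 and 210 (L -2.98). The other 3 lie 147 kb from Mycn, 138 kb from Irf8 and 37.0 kb from Gpr37l1, with L of -2.21, -2.24 and -2.21. The 5 regions held 55.4 to 495 normalized reads in the induced libraries.

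The 3 comparisons that involve the induced libraries share those libraries, and their values are given side by side. In a limma fit over all 167573 regions with a mean of at least 10, all 2381 reduced regions were lower in Etv2OE SP than in wild-type SP at a Benjamini-Hochberg adjusted p below 0.05, and 31.9% of all regions tested and 34.0% of regions open alike were lower too. Among regions open alike that share was 55.4% without Etv2OE SP replicate 2 and 20.01% with DESeq2. Against wild-type DP, 2381 were lower (median difference -2.51 on the log2 scale), with 33.2% of all regions tested and 29.5% of those open alike. Against Etv2KO DP, 2378 were lower (median -2.49), with 32.9% and 26.8%. The rule's bounds fix the direction against both wild-type groups and its floor on the knockout group limits it there, so nothing is read from these counts. Between wild-type SP and DP, which the rule bounds, limma called none of the reduced regions, and 95 had an unadjusted p below 0.05. It called 6.20% of all regions tested higher and 8.12% lower in SP, and 0.0867% and 0.0173% of regions open alike.

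The reduced regions lay mostly far from gene ends. Of the 2381, 73 (3.07%) were within 1 kb of an end of a protein-coding gene, against 43.9% of kept regions, 33.5% of regions open alike and 11.5% of all regions. Seen from the other side, reduced regions were 0.540% of the 13510 regions open alike at gene ends and 8.59% of the 26863 elsewhere. The median distance to an annotated start site was 25.4 kb for the 2305 reduced regions on chromosomes with start sites in the table, against 3.64 kb for kept regions, 7.38 kb for regions open alike and 20.9 kb for all regions. A start site lay inside 1.17% of the reduced and 30.6% of the kept regions. Inside the span of a protein-coding gene were 47.2% of the reduced and 71.2% of the kept regions, and 15.1% of the reduced but 2.07% of the kept had no such gene within 100 kb. No annotated miRNA hairpin overlapped a reduced region.

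**Figure D4:**
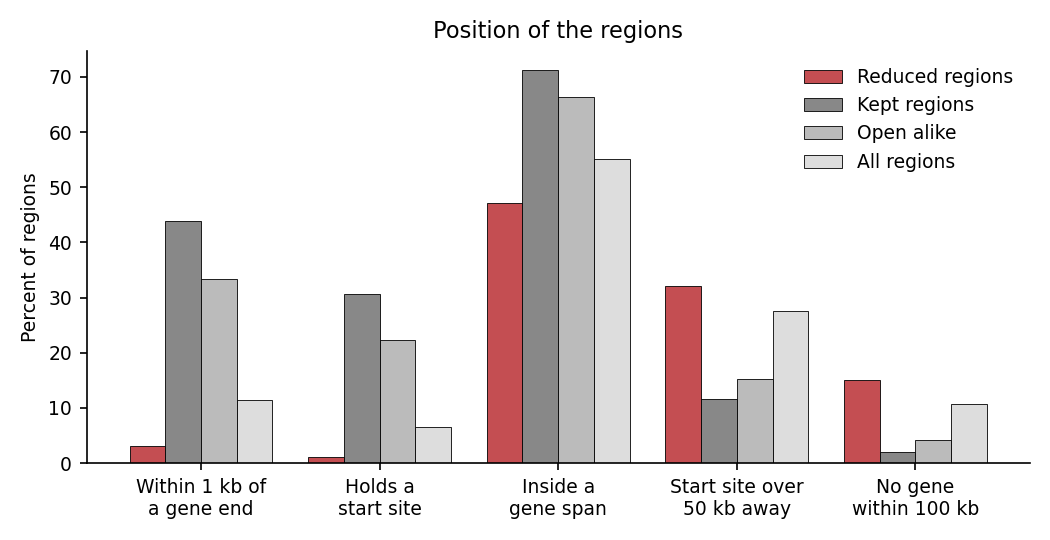
Percent of regions in each position class for the 2381 reduced, 25442 kept, 40373 open-alike and 168842 total regions; start site classes count only regions on chromosomes with start sites in the table. At gene ends the bars are 3.07% for reduced and 43.9% for kept regions, and with no gene within 100 kb they are 15.1% and 2.07%.

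Most reduced regions had no other reduced region within 10 kb. Of the 2381, 267 (11.2%) lay within 10 kb of another, in 127 chains of at most 4. This was not counted for other sets of regions, so nothing is read from it. The densest chain has 4 regions in 4.68 kb inside Bcas3, where all 4 regions open alike were reduced, and another has 4 in 14.7 kb at St7. By chromosome, reduced regions were between 4.26% (chromosome 10) and 7.62% (chromosome 1) of regions open alike on the autosomes and X, and 0 of 21 on Y. Of the protein-coding genes, 1531 had at least 1 reduced region nearest to them within 100 kb. Of these, 1196 had exactly 1, 99 had 3 or more and 13 had 5 or more.

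Fgfr2, which encodes a receptor of fibroblast growth factors, had the most, 8 of its 13 regions open alike. The lowest of them, inside the gene at chr7:130192918-130193318, had 164 and 152 normalized reads in wild-type DP, 207 and 192 in wild-type SP, 204 and 220 in Etv2KO DP, and 14.6 and 31.5 in Etv2OE SP (L -2.87). The L of the 8 ran from -2.87 to -2.21, and 27 of the 44 regions at Fgfr2 were lower and 4 higher in Etv2OE SP than in wild-type SP by limma. Pja1, which encodes a ubiquitin ligase and lies on chromosome X, had 7 of 16, with 26 of its 34 regions lower and 0 higher. Auts2 and Bcas3 had 6 each, of 21 and 18. Tenm4, Lbh, Tbx5 and Haao had 5 each. With Etv2OE SP replicate 2 alone, Fgfr2 and Lbh had 5 each, Tbx5 and Pja1 1 each. Auts2 and Tenm4 also hold 140 and 114 regions in all.

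Lbh, named for its expression in limb bud and heart, had 5 of 9, with L from -3.43 to -2.07. The lowest, 64.2 kb from the gene at chr17:73006139-73006539, had 479 and 534 normalized reads in wild-type DP, 384 and 358 in wild-type SP, 566 and 594 in Etv2KO DP, and 27.0 and 32.8 in Etv2OE SP. Here the 2 induced libraries agree closely. At the Lbh start, whose CG-rich sequence is printed above, L was -0.07.

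Genes of heart development were counted with a list of 36. Of the 219 regions open alike nearest to them, 28 (12.8%) were reduced, at 15 genes, beside 5.90% of all regions open alike. With Etv2OE SP replicate 1 alone as the induced group the share was 19.2%, beside 10.2%, and with replicate 2 alone 5.48%, beside 3.34%, settings added after seeing the data. The median L of those 219 was -0.61, beside -0.24 over all regions open alike. Of the lists described below, the median was -0.67 for primitive streak, -0.66 for mesenchyme, -0.64 for signalling and -0.22 for endothelial genes. The cardiac list was chosen with earlier results of these data known and its share is given as a description. Reduced regions were 0.540% of regions open alike at gene ends and 8.59% elsewhere. The shares of this and the other lists were not split by position, so the part of position in them was not tested. Tbx5, the T-box factor of the first heart field and forelimb, had 5 of 23, Tbx20 and Tbx3, T-box factors of the heart and its conduction system, 4 each, Hand1, a helix-loop-helix factor of heart and extraembryonic mesoderm, 3 and Gata4, a zinc-finger factor of cardiac mesoderm, 2.

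The region of lowest L at Tbx20, 13.5 kb from the gene at chr9:24787809-24788209, had 220 and 239 normalized reads in wild-type DP, 222 and 243 in wild-type SP, 198 and 209 in Etv2KO DP, and 5.11 and 48.6 in Etv2OE SP (L -2.90). At Tbx5 the lowest, 87.8 kb from the gene at chr5:119973068-119973468, had 179 and 188, 144 and 199, 118 and 90.3, and 9.48 and 19.7 in the same order (L -3.17). At Hand1 the lowest had 120 and 117, 146 and 145, 94.9 and 86.8, and 12.4 and 26.3 (L -2.62). In each of the 3 regions both induced libraries lie below all others. The 2 regions at Gata4 were unlike in level, with 861 and 862 normalized reads in wild-type SP against 146 and 269 in Etv2OE SP at one inside the gene, and 181 and 166 against 8.02 and 60.4 at one 11.98 kb away.

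Genes of the primitive streak, the site where mesoderm forms, had 5 reduced of 96 regions open alike (5.21%). Each lies at a different gene. The region 3.58 kb from Mesp1, the helix-loop-helix factor of nascent cardiac and head mesoderm, is at chr7:79797169-79797569 and had 1169 and 1146 normalized reads in wild-type DP, 1126 and 1088 in wild-type SP, 1157 and 1070 in Etv2KO DP, and 105 and 300 in Etv2OE SP (L -2.42). The 6 libraries without induction differ little here. At Eomes, a T-box factor of the streak, the region 61.8 kb away had 269 and 217 in wild-type SP and 13.9 and 52.6 in Etv2OE SP (L -2.70). Foxa2, Gsc and Wnt3 have the other 3, with L of -2.22, -2.07 and -2.07.

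Of the genes of signalling in mesoderm, 23 had reduced regions, 38 of 333 regions open alike (11.4%; 17.4% with replicate 1 alone and 6.91% with replicate 2 alone). Besides Fgfr2 they include the ligand Pdgfa, which binds PDGFRalpha, the Hedgehog effector Gli2, the Wnt antagonists Sfrp1, Sfrp5 and Dkk1, the BMP ligands Bmp2 and Bmp7 and the homeobox genes Msx1 and Msx2. The Gli2 region, 16.8 kb from the gene, had 518 and 563 normalized reads in wild-type DP, 645 and 701 in wild-type SP, 514 and 492 in Etv2KO DP, and 17.5 and 116 in Etv2OE SP (L -3.24). The Pdgfa region of lowest L had 385 and 365 in wild-type SP and 43.0 and 70.9 in Etv2OE SP (L -2.61).

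Genes of epithelial-mesenchymal transition and mesenchyme had 13 of 110 (11.8%; 19.1% and 5.45% with each induced library alone), at 8 genes that include the helix-loop-helix factor Twist2, the Hippo pathway factor Tead1, and Cdh2 and Cdh11, which encode cadherins. The Twist2 region at chr1:91830797-91831197, inside the gene, had 197 and 203 normalized reads in wild-type DP, 225 and 196 in wild-type SP, 139 and 124 in Etv2KO DP, and 8.02 and 23.6 in Etv2OE SP (L -3.37). Paraxial and lateral mesoderm genes had 8 of 103 (7.77%), at Eya1, Pax3, Dll1, Foxc1, Foxf1 and Prrx2. HOX, CDX and TALE genes had 8 of 118 (6.78%). Endoderm genes had 6 of 59 (10.2%), of which 4 are at Cxcr4, a chemokine receptor that mesoderm also expresses.

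Besides the primitive streak list, those with shares below that of all regions open alike were pluripotency, with 3 of 70 (4.29%, at Sall4, Prdm14 and Tfcp2l1), and neuroectoderm, with 5 of 118 (4.24%). Housekeeping genes had 0 of 45, and these shares too were not split by position. The placing of some lists turned on the induced library. With Etv2OE SP replicate 1 alone the primitive streak share was 12.5%, beside 10.2% of all regions open alike. With replicate 2 alone it was 3.125%, beside 3.34%. The share of paraxial and lateral mesoderm genes was below that of all regions open alike with either library alone (9.71% and 2.91%).

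Endothelial and blood genes also had reduced regions. Of 162 regions open alike at 36 endothelial genes, 10 (6.17%) were reduced, and of 84 at 22 hematopoietic genes, 6 (7.14%). With Etv2OE SP replicate 1 alone these shares were 14.2% and 11.9%, and with replicate 2 alone 4.32% and 4.76%. Over all tested regions of the endothelial list, 31.2% were higher and 25.6% lower in Etv2OE SP than in wild-type SP by limma, and of the hematopoietic list 23.6% and 29.2%, whereas 10.3% were higher and 52.5% lower for the cardiac list, beside 16.6% and 31.9% of all regions tested. The cardiac list did not stand alone. In the same order the shares were 4.8% and 55.7% for primitive streak, 11.7% and 46.5% for signalling and 14.0% and 44.9% for mesenchyme. For the housekeeping list they were 13.6% and 26.4%. The endothelial members are at Nrp2, Nrp1, Kdr, Efnb2, Ets1 and Flt1, of which Nrp1 and Nrp2 encode co-receptors of VEGF and semaphorins. At Flt1, which encodes a second VEGF receptor, 17 regions were higher and 4 lower, and 1 inside the gene was reduced, from 162 and 170 normalized reads in wild-type SP to 19.7 and 36.8 in Etv2OE SP.

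At Kdr, 2 regions were reduced among 15 higher and 17 lower regions of 43. The region 2.47 kb from the gene at chr5:75929954-75930354 had 154 and 176 normalized reads in wild-type DP, 220 and 199 in wild-type SP, 199 and 232 in Etv2KO DP, and 27.7 and 53.9 in Etv2OE SP (L -2.23). The region 29.4 kb from the other end of the gene had 698 and 714, 524 and 544, 844 and 901, and 43.0 and 201 (L -2.09). The Kdr start was kept, with 467 and 480 in wild-type SP and 380 and 519 in Etv2OE SP. A region inside Kdr went the other way, from 175 and 170 in wild-type SP to 576 and 970 in Etv2OE SP (L 2.13), so that regions of both directions lie at this gene.

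Runx1, the factor required for blood stem cells to arise from endothelium, had 4 reduced regions, all inside the gene. The lowest, at chr16:92778131-92778531, had 585 and 600 normalized reads in wild-type DP, 761 and 819 in wild-type SP, 558 and 521 in Etv2KO DP, and 19.0 and 150 in Etv2OE SP (L -3.15). The induced libraries differ from each other here but both lie below the other 6. The Runx1 start region, whose sequence is printed above, had 911 and 857 in wild-type SP and an L of -0.33. Near Ets1, an ETS-family factor of endothelium, a region 72.5 kb from the gene had 75.3 and 89.2 in wild-type SP and 3.65 and 6.57 in Etv2OE SP (L -3.11). The remaining hematopoietic members are at Zfpm1, which encodes the GATA cofactor FOG1, and Meis1, with L of -2.06 each.

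Start regions were compared with the reduced regions of the same genes. Where a gene had several start regions, only the one with the highest wild-type SP mean was used. Of the 1531 genes, 782 had a region at an annotated start that was tested, and 187 of these starts (23.9%) were lower and 32 (4.09%) higher in Etv2OE SP than in wild-type SP by limma. The median difference was -0.19 on the log2 scale. Over the starts of all 9295 protein-coding genes with such a region, 14.9% were lower and 4.05% higher, with a median of -0.15. Of the 689 starts of genes with reduced regions that were open alike, 558 (81.0%) were kept, beside 88.7% over all genes, and 6 starts were themselves reduced regions. The starts of Nrp2, Kdr, Lbh, Prrx2 and Bcas3 were kept, with L of 0.05, -0.07, -0.07, -0.12 and -0.16. Among starts that were lower by limma, L was -0.51 at Tbx20, -0.82 at Nrp1, -1.15 at Smarcd3, -1.15 at Pdgfa and -1.49 at Sfrp5, which encodes a Wnt antagonist. The start of Tnnt2, which encodes cardiac troponin T, went from 173 and 174 normalized reads in wild-type SP to 12.4 and 63.1 in Etv2OE SP (L -2.06) and is not a reduced region, because it was not open alike.

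**Figure D5:**
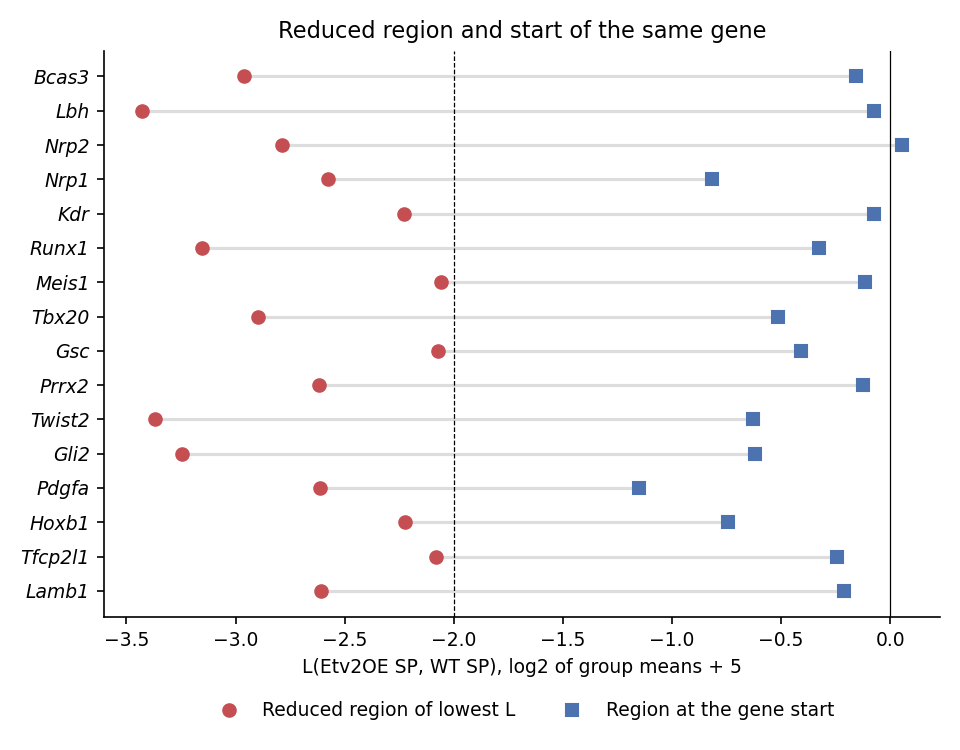
L(Etv2OE SP, WT SP) of the reduced region of lowest L (red circles) and of the region at the gene start (blue squares) for 16 genes of the lists and of the genes with most reduced regions. Where a gene has several start regions, the one with the highest wild-type SP mean is shown. The dashed line marks -2, the bound that chose the reduced regions. The starts lie between -1.15 and 0.05, to the right of the bound at every gene shown. The red circles were chosen by the bound and as the lowest of each gene, so nothing is read from the gap. Starts of other genes named in the text, among them Tnnt2, Sfrp5 and Smarcd3, are not plotted.

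The comparison of Etv2KO DP with wild-type DP is the one that the rule did not use as a contrast, although its floor of 50 on both means keeps deep losses out. In the limma fit over all 4 groups, 28 reduced regions rose (1.18%) and 42 fell (1.76%) in the knockout. Of all regions tested 1.72% rose and 2.21% fell, and of regions open alike, which share the floors, 0.807% and 2.39%. The median difference over the reduced regions was -0.02 on the log2 scale, beside -0.12 over regions open alike and -0.07 over all. The 10th and 90th percentiles were -0.54 and 0.47 for the reduced regions and -0.49 and 0.28 for regions open alike.

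These counts depend on which libraries enter the fit. The median standard error of the knockout difference over reduced regions was 0.263 with all 4 groups, which include the 2 unlike induced libraries, and 0.134 with wild-type DP and Etv2KO DP alone. Over regions open alike it was 0.191 and 0.133. With the compared groups alone, 438 reduced regions rose (18.4%) and 476 fell (19.99%), beside 7.88% and 22.4% of regions open alike and 9.70% and 14.2% of all regions tested. The share that rose was larger among reduced regions than among regions open alike in that fit, with edgeR (4.66% against 2.70%), with DESeq2 (1.68% against 0.775%) and with median-of-ratios scaling (2.06% against 1.90%). The same held with a pseudocount of 1 (0.672% against 0.590%), without the filter on low values (1.18% against 0.812%) and with the replicate number as a block (1.09% against 0.701%). It also held with a library of wild-type DP, wild-type SP or Etv2OE SP left out. The share was not larger with scaling on the 10000 highest regions (2.73% against 2.96%), with quantile normalization (3.23% against 3.47%) or without either Etv2KO DP library, where few regions were called. Over all regions tested, the share that rose was above that of reduced regions in several settings. It was 1.135% with a pseudocount of 1, 1.795% without the filter, 2.57% with median-of-ratios scaling and 1.625% with the block. The share over all regions was below that of reduced regions with edgeR (3.62%), DESeq2 (1.23%) and the compared groups alone (9.70%). The part of position in these shares was not tested.

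The largest rise was at chr7:64004985-64005385, 66.1 kb from Klf13, which encodes a Krüppel-like factor. This region had 122 and 106 normalized reads in wild-type DP, 108 and 121 in wild-type SP, 424 and 433 in Etv2KO DP, and 13.1 and 17.1 in Etv2OE SP. The knockout libraries lie above all others, and limma gave a difference of 1.87 (SE 0.19, adjusted p = 0.000197). A region at chr12:97640014-97640414 with no protein-coding gene within 100 kb had 56.3 and 71.0 in wild-type DP and 226 and 239 in Etv2KO DP (1.80, SE 0.22, adjusted p = 0.000898 by limma). Both calls held with each library left out and under every other setting tried. Regions inside Gm19410 and Trim30d rose by 1.54 and 1.42, with limma adjusted p of 0.00245 and 0.0108. The Gm19410 call was lost without wild-type DP replicate 2 or either Etv2KO DP library (adjusted p up to 0.0719), and the Trim30d call without any 1 of the 4 libraries compared (up to 0.162).

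The largest falls were inside Gm21818, a predicted gene, and Pld5, near Acer2, which encodes a ceramidase, and inside Prrx2, a homeobox gene of mesenchyme. The Prrx2 region at chr2:30846708-30847108, 1.34 kb from a start site, had 278 and 282 normalized reads in wild-type DP, 207 and 198 in wild-type SP, 102 and 91.5 in Etv2KO DP, and 23.3 and 34.2 in Etv2OE SP. It was thus lower in the knockout and lower still in the induced cells, and the knockout difference was -1.49 (SE 0.20, limma adjusted p = 0.00140, and 0.0527 without Etv2KO DP replicate 2). At Pld5 the region had 791 and 827 in wild-type DP and 218 and 238 in Etv2KO DP, a difference of -1.81 (limma adjusted p = 0.00575). Near Acer2 it was -1.53 (limma adjusted p = 0.0170). Both calls were lost without any 1 of the 4 compared libraries, with adjusted p up to 0.107 and 0.212. The Acer2 start region was also lower in the knockout, with 573 and 567 normalized reads in wild-type DP and 272 and 273 in Etv2KO DP. The difference at Gm21818 was -2.39 with a limma adjusted p of 0.0486, which was as high as 0.360 without Etv2KO DP replicate 2.

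Of the 129 reduced regions nearest to list genes or Lbh, limma called 2 higher (1.55%) and 3 lower (2.33%) in the knockout, beside 0.807% and 2.39% of regions open alike. Of these, 3, at Hand1, Twist2 and Lbh, were singled out after their values were seen. The Meis1 region, 3.56 kb from this TALE homeobox gene, had 104 and 115 normalized reads in wild-type DP, 264 and 295 in Etv2KO DP and 22.6 and 42.0 in Etv2OE SP, a rise of 1.31 (SE 0.24, limma adjusted p = 0.00986, at most 0.175 in the other settings). A region 34.6 kb from Lbh rose by 0.99 (limma adjusted p = 0.0267, at most 0.275). A region 49.3 kb from Hand1 was at 125 and 159 in wild-type DP and 67.2 and 60.6 in Etv2KO DP, a difference of -1.09 (limma adjusted p = 0.0316, at most 0.298). The second Twist2 region was at 135 and 135 and at 52.9 and 58.2, a difference of -1.21 (limma adjusted p = 0.0334, at most 0.241). Of these 5, only the Prrx2 call held in 7 of the 8 fits that leave out 1 library. The Meis1 call held in 4 of the 8, and those at Hand1, Lbh and Twist2 in 2, namely those without an Etv2OE SP library.

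Near gene ends the reduced regions of lowest L are at Stra6, Clec4f, 8030462N17Rik, Ccdc170, Mipep, Mtch1, 1700013G24Rik and Cbfa2t2, with L from -3.18 to -2.72. The region at Stra6, which encodes the receptor for retinol binding protein, had 194 and 150 normalized reads in wild-type SP and 16.0 and 13.1 in Etv2OE SP. It lies 31.3 kb from the nearest annotated start site, as the ends counted here include the 3′ ends of genes. Clec4f, a lectin gene, has a region that rose in the knockout, from 266 and 254 in wild-type DP to 565 and 538 in Etv2KO DP, by 1.07 (limma adjusted p = 0.0397). That call was lost with a pseudocount of 1 and without any library of wild-type DP, wild-type SP or Etv2KO DP, with adjusted p up to 0.278.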

How the data were processed

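The files hold, for each region, a normalized read count in each library, which is a signal value in the deposited tables. The submitters' processing notes name Bowtie2, MACS2, DiffBind 3.14.1 and mm10 without their roles; for peak calling settings and any Tn5 shift, nothing is given in the sources used here. All values of each library were whole multiples of 1 step within 0.01 reads, which gives the depths printed. Members and gene lists were chosen with earlier results of these data known. Values were tested as log2(value + 5) with limma (version 3.58.1; R version 4.3.3), with 4 group means, an intensity trend, a filter of mean at least 10 (167573 regions), 4 residual and 8.15 prior degrees of freedom, and Benjamini-Hochberg adjustment at 0.05. The scripts were tested on simulated data. edgeR 4.0.16 and DESeq2 1.42.0 on the recovered reads, other scalings, pseudocounts, filters and left-out libraries were alternatives. Replicate numbers are those of the sample titles, and the names of the Etv2KO DP libraries carry other numbers. Replicate numbers did not pair libraries (correlations -0.00382 to 0.0560, none above 0.1). Genes and start sites are RefSeq GRCm38.p6; a region belongs to the nearest of 21900 protein-coding spans within 100 kb. Named regions are those of lowest L, highest level, widest gap between induced libraries, largest knockout change, lowest L at gene ends and nearest the bound, and the lowest of the genes with most members overall and in each list. Chromosome 18 start sites were not used here.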

Additional observations from a re-analysis of the deposited data

How the results depend on the processing

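The number of regions that meet the rule was 1349 to 4114 with 1 library left out, of which 1278 and 2331 were shared with the 2381 at these ends, and 1665 to 2833 otherwise, of which 1453 to 2319 were shared. Scaling by the median of ratios moved the median difference between Etv2OE SP and wild-type SP from -0.22 to -0.0021 over all regions tested and from -2.47 to -2.25 over the reduced regions. The knockout counts moved most. Rises, 28 as deposited, were 16 with a pseudocount of 1, 49 with median-of-ratios scaling, 65 with scaling on the 10000 highest regions, 77 with quantile normalization, 111 with edgeR, 438 with the compared groups alone, and 2 to 406 with 1 library left out. Falls, 42 as deposited, were 19 with a pseudocount of 1, 71 with quantile normalization, 84 with edgeR, 24 with DESeq2, 476 with the compared groups alone, and 2 to 439 with 1 library left out. The highest counts are those of the compared groups alone and of the fits with 1 Etv2OE SP library left out. Where an arm had 1 library, it was assumed to vary like the other groups. With the replicate number as a block, 26 rose and 34 fell, and the numbers are not shown to pair the libraries. The median knockout difference over the reduced regions was -0.02 as deposited and 0.04 to 0.06 under the 3 other scalings, edgeR and DESeq2. The share at gene ends was 5.38% within 2 kb, 1.55% within 500 bp, and 2.30% to 3.52% with 1 library left out, an alternative added after seeing the data. Of 69 named reduced regions, 49 kept an L of -2 or lower without Etv2OE SP replicate 1 (highest -1.31), and 64 to 69 did under the other settings. The cause of these changes was not tested beyond what the settings change.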
